A study of Cavia porcellus with 9 samples.

Results

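The retinal transcriptome of guinea pigs (Cavia porcellus) kept under green light was compared with that of animals kept under white light, over every gene with enough counts to be tested: 15469 of the 19962 genes in the count table. Male tri-colour Dunkin-Hartley animals arrived at 2 weeks of age, lived on an equal light and dark cycle under green, blue or white light for 8 weeks, and gave retinas at 12 weeks. Of the 9 RNA-seq libraries, 3 came from green light, 3 from white and 3 from blue; the blue libraries share the fit and are given for orientation. The titles of the study name wavelength defocus and the control of refraction in either direction as its subject, and the white group is the reference light.

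Libraries are numbered 1 to 3 within a light in the order of their deposition. Green libraries 1 and 2 carry the same animal number, 11, as do white libraries 1 and 2, with the number 6, so each light has 2 animal numbers. The white pair is titled as the right and the left eye, but both green titles name the right eye, and whether they come from the same retina is not stated. It is also not stated whether white library 3 (R-23) and blue library 1 (2R-23) come from the same animal. The titles of green library 1 and white library 3 end in "-B", a mark with no explanation in the labels. P-values therefore measure the spread between libraries, some of which share an animal. The table held 62155041 to 74979806 counts per library, and levels are given as CPM, each gene's counts scaled to the same library total.

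Refraction is set during growth by signals that start in the retina: the photoreceptors register focus, and amacrine cells, bipolar cells and the pigment epithelium pass messages on to the choroid and sclera. Longer wavelengths are focused farther back in the eye than shorter ones, so light of a narrow band moves the plane of best focus. The guinea pig retina has rods, cones of a short-wave and a middle-wave type, and no blood vessels of its own, so its inner layers depend on oxygen from the choroid and on glycolysis.

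The libraries carried the markers of retina, with 14 of 15 fixed markers tested and a summed level of 54444 to 67376 CPM in green and 64148 to 70914 CPM in white. Tissue attached to the retina differed between libraries. The summed level of 7 pigment epithelium markers was 53, 302 and 36.5 CPM in green and 149, 347 and 78.6 CPM in white, so green library 2 and white library 2 stood well above the rest of their groups. Neither of 2 blood markers was tested, and the single vessel marker tested, Pecam1, was at most 1.18 CPM in any library. Fewer cells of a type and less RNA per cell cannot be told apart in such whole-tissue libraries.

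Over the whole transcriptome the green and white libraries differed little. In edgeR, 1 gene passed an adjusted p of 0.05, which is 0.00646% of the genes tested. An unadjusted p under 0.05 was found for 899 genes (5.81%): 544 were higher in green (3.52%) and 355 lower (2.29%). The 3 green libraries did not overlap the 3 white ones for 826 genes that were higher (5.34%) and 733 that were lower (4.74%). The log2 difference was above 0 for 52.4% of genes and its median was 0.0090. DESeq2 called 24 genes, 16 higher and 8 lower. In edgeR the count of calls was 0 without blue library 2 or 3, 2 without green library 2 or 3, 3 without white library 1 or 2, 6 without white library 3 and 10 without both libraries marked "-B", and the count at an unadjusted p under 0.05 ran from 374, with the pigment epithelium level as a covariate, to 1375 in voom (550 without white library 2).

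How far a gene differed moved with its level. Among 1904 genes averaging under 1 CPM the median size of the log2 difference was 0.44, and 336 of them (17.6%) differed by more than 2-fold. Among 2240 genes above 100 CPM the median size was 0.07, and 1 gene exceeded 2-fold. The share of genes higher in green moved with level too. It was 56.7% under 1 CPM, 59.4% from 1 to 10 CPM, 50.9% from 10 to 100 CPM and 42.3% above 100 CPM. From 1 to 10 CPM, 177 genes were higher and 70 lower at an unadjusted p under 0.05, and above 100 CPM 72 and 49. The direction also moved with the length of the gene in the reference annotation. Of the genes with the shortest spans (under 13.3 kb), 43.0% were higher in green, with 154 higher and 179 lower at an unadjusted p under 0.05. Of those with the longest spans (44.3 kb and more), 61.2% were higher, with 185 higher and 52 lower. The parts of level and of gene length in the lists below were not tested. The median span is given beside several of them. Over all genes with a span it was 24.1 kb. Of lists described without it, those of motile cilia and of angiogenesis had 60.0 and 37.8 kb. Those of microglia, inflammation, interferon and cell cycle had 12.3, 9.66, 8.88 and 15.2 kb.

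**Figure D1:**
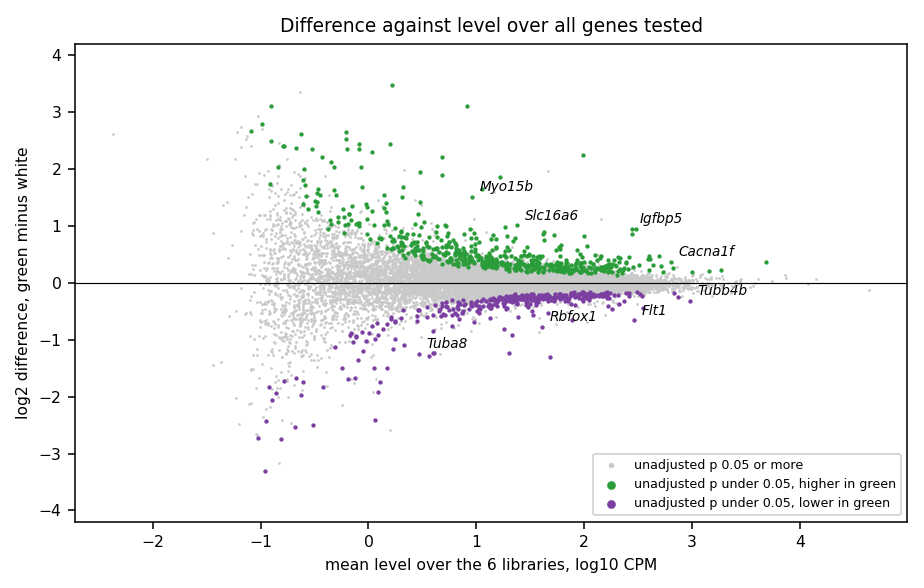
Log2 difference between green and white light (vertical) against the mean level over the 6 green and white libraries (horizontal, log10 CPM) for the genes tested; coloured points have an unadjusted p under 0.05. The spread narrows with level, 1 gene above 100 CPM differed by more than 2-fold, and 12 genes with a log2 difference beyond 4 in size lie outside the plot.

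The gene that passed, LOC101788254, codes for a protein and has no symbol. Its counts were 65, 104 and 123 under green light, 81, 119 and 108 under blue light and 0 in all 3 white libraries. Its level in green was 1.40 ± 0.498 CPM (SD, n = 3), at least 93.2-fold above the 0.0151 CPM that 3 counts over the white group would give (edgeR adjusted p = 0.0143). Green and blue libraries thus carried it at a like level and white libraries lacked it. The call was lost without blue library 2 (adjusted p = 0.0678) or blue library 3 (0.0656), which are not part of the contrast, and in a fit of the 6 green and white libraries alone (0.14); over all alternatives its adjusted p ran from 1.47e-08 to 0.164.

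Below the threshold, genes were taken in order of their p among those with a symbol, no overlap between the groups and at least 1 CPM in the higher one. The 15 higher genes had log2 differences from 0.34 to 1.68 and adjusted p from 0.123 to 0.696; the 15 lower genes had differences from -1.26 to -0.32 and adjusted p from 0.475 to 0.768. None is a call in edgeR, and the values that follow describe these libraries. DESeq2 called some of them and not others, such as Cacna1f and Gja1. Its adjusted p was 3.82e-08 for Myo15b, 5.42e-06 for Slc16a6, 0.000529 for Igfbp5, 0.000774 for Rbfox1 and 0.00334 for Tuba8.

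Myo15b, an unconventional myosin gene, headed the higher genes. It stood at 13.3, 17.1 and 10.1 CPM in green, at 5.07, 3.86 and 5.31 CPM in white and at 4.57, 5.68 and 5.69 CPM in blue. Every green library was well above the other 6, and the log2 difference from white was 1.51 ± 0.21 (SE; edgeR adjusted p = 0.123). Slc16a6, of the monocarboxylate transporter family, was at 31.0, 36.9 and 28.2 CPM in green and 16.0, 13.4 and 18.3 CPM in white (log2 difference 1.01 ± 0.16). The blue libraries, at 26.4, 18.6 and 21.7 CPM, lay between the others without reaching either.

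Igfbp5, a secreted protein that binds insulin-like growth factors, stood at 351, 264 and 483 CPM in green, 168, 203 and 199 CPM in white and 228, 178 and 169 CPM in blue. Green was the group that stood apart, with the widest spread of the 3 lights and a log2 difference from white of 0.95 ± 0.19. Arrdc3, an alpha-arrestin that sorts membrane receptors, was at 102, 156 and 120 CPM in green and 57.9, 62.2 and 93.6 CPM in white (log2 difference 0.82 ± 0.19). Ip6k3, an inositol hexakisphosphate kinase, differed by 0.34 ± 0.08 and Enpp6, a choline phosphodiesterase of myelinating glia, by 1.68 ± 0.38. Enpp6 was low, at 4.96, 1.53 and 3.02 CPM in green and 1.16, 0.708 and 1.11 CPM in white. The 3 markers of optic nerve glia summed to 139, 92.6 and 114 CPM in green and 105, 89.7 and 91.1 CPM in white, with the libraries of each light in the same order as for Enpp6. Their part in the difference of Enpp6 was not tested.

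Cacna1f, which encodes the calcium channel that drives transmitter release at photoreceptor terminals, was at 674, 786 and 698 CPM in green, 551, 518 and 605 CPM in white and 588, 589 and 548 CPM in blue. All 3 green libraries lay above all 6 others, by a log2 difference from white of 0.37 ± 0.08. The remaining higher genes of this rank were Ddit4, treated below with the hypoxia genes, Rab44, Thap9, Mpzl1, Fam129b, Pih1d2, Fhad1 and Scarf1. Fam129b and Pih1d2 were as high in blue as in green, whereas Scarf1, a scavenger receptor gene, was at 7.45 to 8.13 CPM in green and 4.21 to 5.32 CPM in blue.

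**Figure D2:**
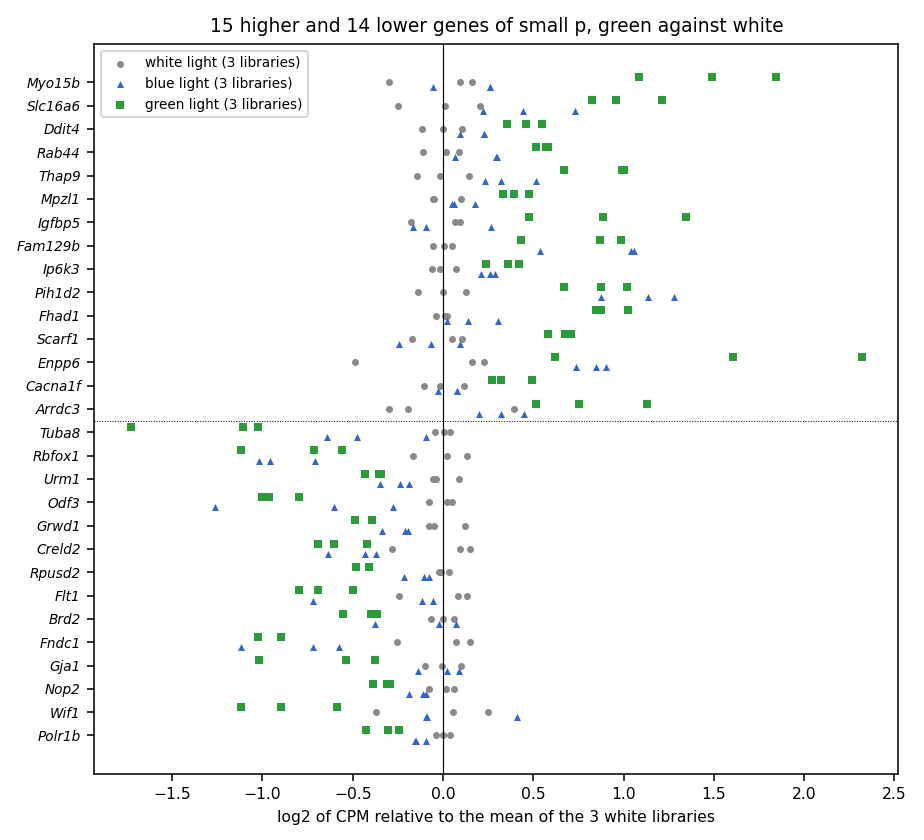
Log2 of CPM relative to the white mean for 15 higher (above the dotted line) and 14 of the 15 lower genes of smallest p; each point is a library of green, blue or white light. The green squares lie wholly to the right of the white circles above the line and wholly to the left below it, as the choice of genes required, while the blue triangles fall with green for Fam129b, Pih1d2 and Rbfox1 and with white for Myo15b, Igfbp5 and Gja1.

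Among the lower genes, Tuba8, an alpha-tubulin, was at 1.24, 1.92 and 2.03 CPM in green and 4.14, 4.0 and 4.23 CPM in white (log2 difference -1.26 ± 0.23). Rbfox1, a neuronal splicing regulator whose locus is among those tied to human refractive error, was at 35.0, 31.5 and 23.8 CPM in green, 52.3, 46.0 and 56.5 CPM in white and 26.6, 31.6 and 25.5 CPM in blue. White was the group that stood apart for Rbfox1, with a log2 difference between green and white of -0.78 ± 0.15. Odf3, a sperm tail gene, differed by -0.92 ± 0.20.

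Flt1 encodes a receptor for vascular endothelial growth factor that also occurs in a secreted, trapping form. It was at 203, 249 and 218 CPM in green, 387, 374 and 299 CPM in white and 340, 326 and 214 CPM in blue. The green libraries lay below all white ones (log2 difference -0.66 ± 0.16), and blue spanned both ranges. Brd2, a reader of acetylated histones, was at 273, 304 and 311 CPM in green and 383, 418 and 401 CPM in white (-0.44 ± 0.11). Gja1, the gap junction protein connexin 43 of glia and pigment epithelium, was at 8.07, 12.6 and 11.3 CPM in green and 15.3, 16.3 and 17.5 CPM in white, and the blue libraries, at 16.6, 14.8 and 17.4 CPM, matched white. Wif1, a secreted Wnt inhibitor made in the retina, was at 3.39, 2.34 and 2.72 CPM in green and 5.28, 6.04 and 3.92 CPM in white. Its log2 difference was -0.85 ± 0.23, and that of Fndc1, a fibronectin-domain gene, was -0.98 ± 0.25.

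Grwd1, Nop2 and Polr1b, which act in ribosome assembly, ribosomal RNA methylation and transcription of ribosomal RNA, differed by -0.42 ± 0.09, -0.33 ± 0.08 and -0.32 ± 0.09. Nop2 was at 26.7, 25.3 and 27.0 CPM in green and 31.3, 34.4 and 33.4 CPM in white. Urm1 (-0.38 ± 0.08), which modifies transfer RNA, and Rpusd2 (-0.44 ± 0.10), a pseudouridine synthase, belong to the same set of 15. All 5 are small differences, from -0.44 to -0.32 on the log2 scale, between groups of libraries that did not overlap.

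Among genes averaging at least 100 CPM, the 8 higher genes were Igfbp5, Cacna1f, Leng8, Carns1, Lama1, Nr2e3, Ctnna1 and Vldlr, with log2 differences from 0.27 to 0.95. Leng8, a nuclear RNA-binding protein gene, was at 475, 425 and 494 CPM in green and 347, 319 and 378 CPM in white. Carns1, which makes carnosine, differed by 0.43 ± 0.10 and Ctnna1, the alpha-catenin of cell junctions, by 0.33 ± 0.09. Vldlr, a lipoprotein receptor of photoreceptors and pigment epithelium, differed by 0.27 ± 0.07. The 8 lower were Flt1, Brd2, Calr, Rabep2, Sart3, Tubb4b, Tmcc2 and Pdia4, from -0.66 to -0.22. Tubb4b, a beta-tubulin, was at 790, 848 and 917 CPM in green and 1036, 1179 and 956 CPM in white.

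To see which functions leaned to a side, 100 gene lists were described by their counts and median, with no test on a list. Of these, 96 had at least 8 tested members, and 49 of the 96 had a median above and 47 a median below that of all genes. Described here are 23 lists whose median lay at least 0.1 from that of all genes, or of whose members over 15% had an unadjusted p under 0.05, together with lists on vision, clock, dopamine and growth that are described whatever they showed. A list so picked stands out because of how it was picked, and the lists were chosen with earlier results of these data known. Over all genes 3.52% were higher and 2.29% lower at an unadjusted p under 0.05. Each count of list members at that p is to be read beside these shares. Some genes, such as Thrb, Stc2, Bhlhe40 and Ddit4, stand in several lists and are counted in each. List members named beyond the 4 of smallest p, and the further members of a list given without values, were chosen after their values were seen.

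**Figure D3:**
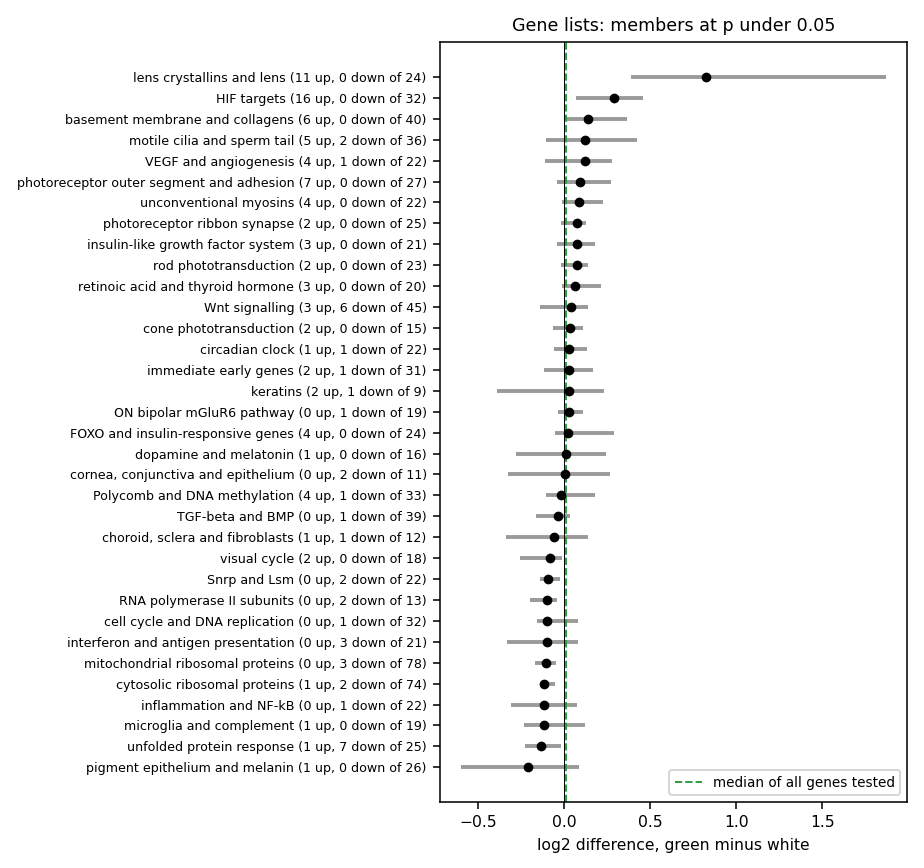
Median (point) and quartiles (bar) of the log2 difference between green and white light over the tested members of each list, with the number of members at an unadjusted p under 0.05 that were higher (up) or lower (down) in brackets. Lens genes and targets of hypoxia-inducible factor lie farthest to the right, and pigment epithelium and unfolded protein response genes farthest to the left of the dashed line, the median of all genes.

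Targets of hypoxia-inducible factor (HIF), the transcription factor that is stabilised when oxygen is short, had the largest share of members at a low p of all lists described. Of 32 tested, 26 had a higher level in green, 16 did so at an unadjusted p under 0.05 and 0 were lower at that p, where 3.52% of all genes were higher; the median log2 difference was 0.29 and the median gene span 21.0 kb. All 3 green libraries lay above all 3 white ones for 14 of the 32, as they did for 5.34% of all genes, and below them for 0. None passed an adjusted p of 0.05 (edgeR, smallest 0.475), whereas DESeq2 called Ddit4 (adjusted p = 0.00558).

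Ddit4, an inhibitor of mTOR signalling that hypoxia and stress induce, was at 118, 111 and 103 CPM in green, 74.3, 86.7 and 80.5 CPM in white and 86.0, 94.2 and 94.4 CPM in blue. Green was above every white and blue library (log2 difference from white 0.46 ± 0.09). Egln3, a prolyl hydroxylase that marks HIF for destruction and is itself a target, was at 33.1, 18.6 and 21.1 CPM in green and 9.74, 9.87 and 17.1 CPM in white (0.99 ± 0.27). Kdm3a, an oxygen-dependent histone demethylase, was at 117, 93.4 and 93.8 CPM in green and 61.1, 61.7 and 82.1 CPM in white (0.57 ± 0.15). Hilpda, a lipid droplet protein, was at 12.4, 12.5 and 13 CPM in green and 5.76, 6.04 and 10.1 CPM in white (0.79 ± 0.22). In all 3 of these genes white library 3 came closest to green.

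Genes of sugar use and growth of vessels stood in the same list. Vegfa, the vascular growth factor, was at 207, 175 and 181 CPM in green, 137, 135 and 153 CPM in white and 172, 132 and 123 CPM in blue (0.40 ± 0.12). Pfkfb3, which sets the pace of glycolysis, differed by 0.45 ± 0.14 and Hk2, the hexokinase of photoreceptors, by 0.27 ± 0.08. Pdk1, which holds pyruvate back from mitochondria, differed by 0.29 ± 0.11 and Bnip3, a receptor for the removal of mitochondria, by 0.43 ± 0.16. The others at this p were Mxi1, Ak4, Ankrd37, Stc2, P4ha2, Bhlhe40 and Adm. The message of the factor itself, Hif1a, did not follow, at 284, 261 and 245 CPM in green and 294, 243 and 255 CPM in white (log2 difference -0.0029 ± 0.09, unadjusted p = 0.976).

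The list did not separate the groups as a whole. The mean over its members of the log2 deviation from the 9-library mean was 0.31, 0.04 and 0.12 in green, -0.24, -0.18 and 0.05 in white and 0.10, -0.10 and -0.10 in blue. Green library 1 was the highest, and white library 3 lay above green library 2. Without green library 1 the count of 16 became 9, and with the pigment epithelium level as a covariate 8.

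**Figure D4:**
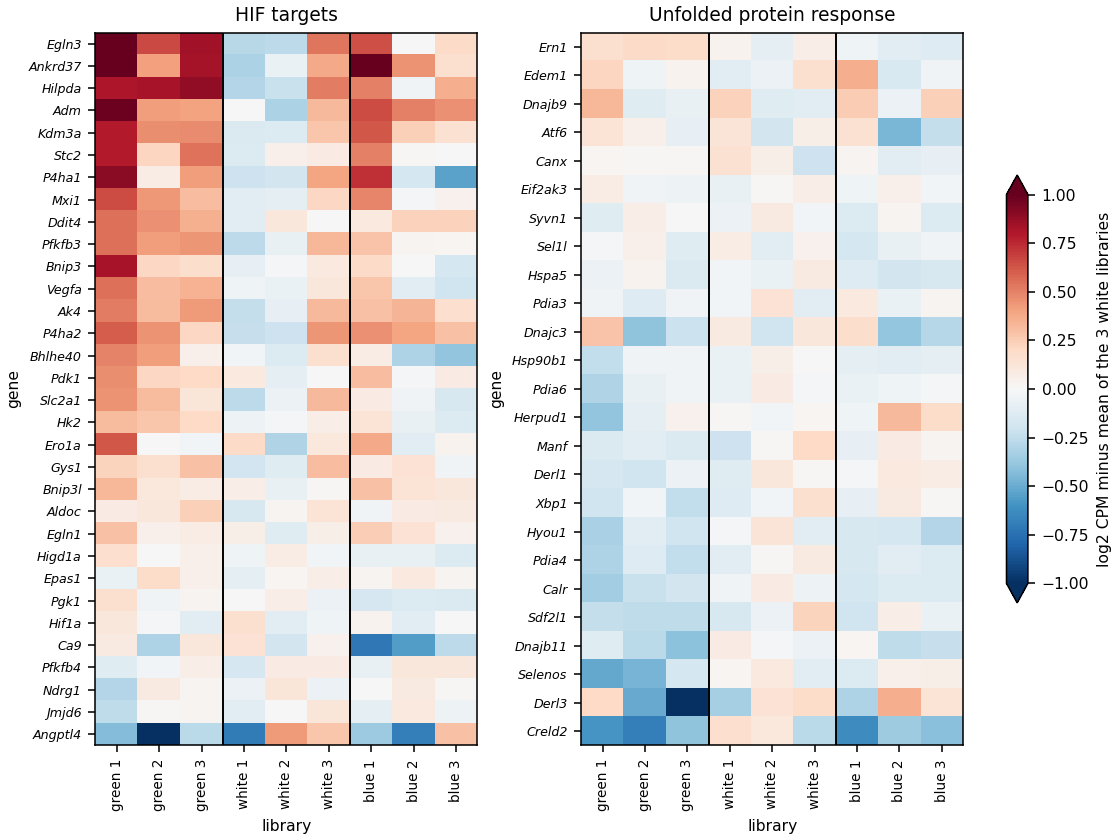
Log2 CPM relative to the mean of the 3 white libraries for the tested members of the HIF target list (left) and of the unfolded protein response list (right), in rows by gene ordered by the difference, and in columns by library of green, white and blue light; the colours are cut off at 1 in size. Green library 1 and, among white, library 3 are redder for HIF targets, and the upper and lower ends of each panel are ordered by the plotted difference itself.

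Vessel-related genes outside the HIF list went in several directions. In the list of 22 genes of vascular growth factor signalling and angiogenesis, 4 were higher at an unadjusted p under 0.05 and 1, Flt1, lower, with a median of 0.12; Vegfa belongs to this list too. Pdgfb, a growth factor for pericytes, was at 2.22, 2.43 and 7.46 CPM in green and 1.87, 1.86 and 1.48 CPM in white, a difference carried mostly by green library 3. Angpt1, a ligand that steadies vessels, was at 35.7, 39.0 and 34.9 CPM in green and 33.9, 29.5 and 28.8 CPM in white. Genes that answer to FOXO factors and insulin (24 tested, median 0.02) had 4 higher and 0 lower at that p: Ddit4, Arrdc3, Txnip and Ccng2. Txnip, which curbs glucose uptake, was at 27.4, 33.7 and 20.8 CPM in green, 14.1, 14.3 and 20.9 CPM in white and 28.7, 33.3 and 32.5 CPM in blue, so green and white touched and blue was as high as green.

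The unfolded protein response, which raises chaperones of the endoplasmic reticulum when folding lags, leaned lower in green. Of 25 members tested, 20 had a lower level, 7 of them at an unadjusted p under 0.05 (2.29% of all genes were lower at that p), and 1, the sensor kinase Ern1, was higher. The median log2 difference was -0.13, and the median gene span was 12.0 kb. The mean deviation over members was -0.04, -0.07 and -0.10 in green and 0.05, 0.07 and 0.08 in white, so the groups did not overlap, and the blue libraries lay between them. Of the 96 lists with at least 8 tested members, 9 separated the groups in this way as higher and 7 as lower.

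Creld2, a disulfide isomerase-like protein, showed the largest difference of the 7. It was at 26.6, 25 and 30.2 CPM in green, 44.9, 43.1 and 33.2 CPM in white and 26.0, 31.2 and 29.9 CPM in blue (log2 difference from white -0.57 ± 0.13), and blue was as low as green. Calr, the calcium-binding lectin chaperone calreticulin, was at 625, 684 and 703 CPM in green and 780, 844 and 770 CPM in white (-0.25 ± 0.07). Selenos, of the pathway that exports misfolded proteins, was at 24.9, 25.8 and 31.6 CPM in green and 36.0, 38.1 and 32.8 CPM in white (-0.38 ± 0.11). Pdia4, a disulfide isomerase, differed by -0.23 ± 0.08, and Dnajb11, Hyou1 and Sdf2l1, all chaperones or their partners, by -0.27 ± 0.11, -0.21 ± 0.09 and -0.26 ± 0.12. Hspa5, the main chaperone of the response, was at 394, 421 and 370 CPM in green and 403, 392 and 436 CPM in white, and the groups overlapped. The count of 7 lower members was 4 without green library 3, 3 with counts summed per animal number and 2 with the pigment epithelium level as a covariate.

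The machinery of translation and RNA handling had many members slightly lower in green and few at a low p. Of 74 cytosolic ribosomal proteins, 67 had a lower level (median -0.11), 2 were lower and 1 higher at an unadjusted p under 0.05. Green library 3 went against the lean: the mean deviation was -0.15 and -0.16 in green libraries 1 and 2 and 0.06 in library 3, and without library 3 the list had 15 lower members. Of 78 mitochondrial ribosomal proteins 64 had a lower level (median -0.11), 3 of them at that p, with green at -0.08, -0.10 and -0.03 and white at 0.01, 0.07 and -0.01. The core proteins of spliceosomal particles (22 tested, median -0.09, median gene span 8.64 kb) and the subunits of RNA polymerase II (13 tested, median -0.10, median gene span 5.99 kb) had 2 lower each and 0 higher. Polr2d, of the latter, was at 21.9, 20.9 and 22.9 CPM in green and 28.5, 26.4 and 25.2 CPM in white. A list of 76 ribosome assembly factors, drawn up after the values of Grwd1, Nop2 and Polr1b were seen, had 64 with a lower level, 10 of them at that p, 0 higher at that p and a median of -0.11; it was drawn from these data and supports nothing. Ribosomal protein genes are among the shortest, with a median span of 3.26 kb for the cytosolic and 7.09 kb for the mitochondrial ones. Of all genes with spans under 13.3 kb, 43.0% were higher in green. The part of span in these lists was not tested.

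Genes of photoreceptor structure leaned slightly higher. The list of outer segment, cilium and adhesion genes had 27 tested members, 7 of them higher at an unadjusted p under 0.05 (3.52% of all genes) and 0 lower. Its median was 0.09 and its median gene span 69.2 kb. Its mean deviation was 0.10, 0.16 and 0.11 in green and 0.00, -0.17 and 0.08 in white. Member by member, all 3 green libraries lay above all 3 white ones for 1 of the 27 and below them for 0. Over all genes they lay above for 5.34%. Ush1c, a scaffold of the Usher protein complex, was at 60.5, 77.9 and 77.0 CPM in green and 40.2, 38.8 and 63.3 CPM in white (log2 difference 0.60 ± 0.17). Rpgrip1, of the connecting cilium, differed by 0.36 ± 0.13, and Impg1, of the matrix between photoreceptors, by 0.28 ± 0.10. For both, a white library overlapped the green ones. Prom1, needed to stack outer segment discs, Adgrv1, Impg2 and Clrn1 made up the 7. The count of 7 was 1 without white library 2, 3 without green library 2, 3 with counts summed per animal number and 1 with the pigment epithelium level as a covariate.

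Of 23 rod phototransduction genes, 2 were higher and 0 lower at an unadjusted p under 0.05 (median 0.07). Nr2e3, the factor that keeps cone genes off in rods, was at 364, 505 and 526 CPM in green, 345, 346 and 318 CPM in white and 406, 482 and 433 CPM in blue (log2 difference from white 0.47 ± 0.13), with green library 1 close to white. Pde6a, a subunit of the rod phosphodiesterase, was at 1374, 1768 and 1442 CPM in green and 1342, 1298 and 1319 CPM in white (0.21 ± 0.10). Of 15 cone genes, 2, Cngb3 and Thrb, were higher and 0 lower (median 0.03). Cngb3, a subunit of the cone cyclic nucleotide-gated channel, was at 58.9, 49.1 and 51.3 CPM in green, 36.1, 25 and 33.6 CPM in white and 40.8, 25.5 and 36.6 CPM in blue. All green libraries exceeded all others for Cngb3 (0.75 ± 0.18; adjusted p = 0.703 in edgeR and 0.0184 in DESeq2).

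The cone pigments themselves differed little. Opn1sw, the short-wave pigment, was at 615, 611 and 698 CPM in green and 582, 554 and 580 CPM in white (log2 difference 0.17 ± 0.08, unadjusted p = 0.0721). Opn1mw, the middle-wave pigment, was at 553, 643 and 673 CPM in green and 638, 754 and 661 CPM in white (-0.14 ± 0.10, unadjusted p = 0.193). All 3 green libraries lay above all 3 white ones for Opn1sw, as they did for 5.34% of all genes, and the groups overlapped for Opn1mw. At the photoreceptor ribbon synapse (25 tested, median 0.08) Cacna1f and Cplx4, a complexin of ribbon terminals, were higher at an unadjusted p under 0.05, and 0 were lower. In the glutamate pathway of ON bipolar cells (19 tested, median 0.03) the only such gene was Gng13, a G protein subunit, at 142, 162 and 159 CPM in green and 172, 174 and 211 CPM in white. Of 7 tested genes of melanopsin cells and other non-visual opsins, none reached that p; Opn4, melanopsin, was at 9.32, 7.62 and 10.5 CPM in green and 5.57, 5.75 and 10.4 CPM in white.

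Visual cycle genes, many of them made in the pigment epithelium, had 14 of 18 members at a lower level (median -0.08), yet the 2 at an unadjusted p under 0.05 were higher. Rbp4, the carrier of vitamin A in plasma, was at 65.4, 44.0 and 91.1 CPM in green and 33.2, 33.7 and 44.8 CPM in white. Dhrs7, a dehydrogenase, was at 38.2, 37.7 and 36.1 CPM in green and 31.0, 34.8 and 29.2 CPM in white. In retinoic acid and thyroid hormone signalling (20 tested, median 0.06) 3 were higher and 0 lower. Rarg, a retinoic acid receptor, was at 36.8, 35.9 and 37.8 CPM in green, 27.2, 28.7 and 30.5 CPM in white and 31.3, 27.3 and 26.3 CPM in blue, with a log2 difference from white of 0.35 ± 0.09. Thrb, the thyroid hormone receptor that directs cone fate, differed by 0.31 ± 0.13 and Slco1c1, a thyroid hormone transporter, by 0.69 ± 0.24.

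Signals of light adaptation and time of day showed few differences. The circadian clock list (22 tested, median 0.03) had 1 member higher, Bhlhe40, and 1 lower, Tef, at an unadjusted p under 0.05. Tef, an output factor of the clock, was at 290, 344 and 321 CPM in green, 357, 407 and 361 CPM in white and 343, 404 and 382 CPM in blue. In the dopamine and melatonin list (16 tested, median 0.01) Aanat, which makes the precursor of melatonin, was the only such gene, at 114, 138 and 153 CPM in green and 93.2, 106 and 122 CPM in white. Th, the rate-limiting enzyme of dopamine synthesis, was at 30.5, 34.6 and 42.8 CPM in green and 25.8, 27.5 and 32.4 CPM in white, and the groups overlapped (unadjusted p = 0.127). Of 31 immediate early genes (median 0.03), Bdnf and Nr4a1 were higher and Klf4 lower at that p. Nr4a1 was at 22.2, 29.9 and 30.3 CPM in green and 22.2, 22.2 and 17.7 CPM in white, and Klf4 was at most 0.393 CPM in any library. Time of day at sampling is not given in the labels.

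Genes of the basement membrane and collagens, the matrix that frames the retina, leaned higher. Of 40 basement membrane and collagen genes 30 had a higher level, 6 of them at an unadjusted p under 0.05, where 3.52% of all genes were higher. At that p 0 were lower, the median was 0.14 and the median gene span 85.7 kb. Lama1, the laminin chain of the inner limiting membrane, was at 128, 104 and 152 CPM in green, 70.7, 78.0 and 97.0 CPM in white and 63.7, 87.3 and 82.5 CPM in blue. Green exceeded every other library for Lama1 (log2 difference from white 0.64 ± 0.16). Lama5 was at 76.8, 86.5 and 87.8 CPM in green and 60.8, 69.2 and 71.2 CPM in white. Col4a1, of the collagen network under epithelia and glia, was at 13.7, 6.67 and 12.5 CPM in green and 6.66, 7.12 and 7.29 CPM in white, with green library 2 inside the white range. Without green library 1 the list had 2 higher and 1 lower, and without green library 2 it had 11 higher and 2 lower.

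In the insulin-like growth factor system (21 tested, median 0.07) Igfbp5, Stc2 and Igfals were higher at an unadjusted p under 0.05 and 0 lower. The growth factors themselves were alike in the 2 lights: Igf2 was at 126, 119 and 123 CPM in green and 124, 138 and 112 CPM in white, and Igf1 at 5.27 to 11.9 CPM in green and 7.96 to 10.5 CPM in white. In the Wnt list (45 tested, median 0.04) 3 were higher and 6 lower, and 7 of these 9 are secreted modulators of the pathway. Sfrp2, which binds Wnt proteins, was at 285, 260 and 530 CPM in green, 172, 212 and 211 CPM in white and 184, 185 and 262 CPM in blue (log2 difference 0.85 ± 0.24), with green library 3 far above the others. Frzb, a protein of the same family, was at 203, 179 and 174 CPM in green and 257, 289 and 170 CPM in white (-0.36 ± 0.15), and Sfrp4, a further one, was at 0.936, 0.623 and 0.970 CPM in green and 1.93, 1.59 and 1.29 CPM in white. Members of this family of secreted inhibitors thus lay on opposite sides. With counts summed per animal number the list had 2 higher and 2 lower, and with the pigment epithelium level as a covariate 0 higher and 1 lower. In the list of transforming growth factor beta and bone morphogenetic protein signalling (39 tested, median -0.04), the only gene at that p was Acvr1, a receptor, at 26.3, 23.6 and 24.1 CPM in green and 30.2, 29.1 and 28.2 CPM in white.

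Several lists met the rule with few members at a low p. The interferon, microglia, inflammation and cell cycle lists did so by their median alone. The Polycomb list did so by its share at an unadjusted p under 0.05 (15.2%, against 5.81% of all genes). The interferon list (21 tested, median -0.10) had 3 lower and 0 higher: Bst2, a tethering factor of viruses, was at 2.18, 1.56 and 3.38 CPM in green and 4.21, 7.93 and 4.52 CPM in white, and Isg15 and Rsad2 were at most 0.648 CPM in any library. Its mean deviation was -0.11, -0.22 and -0.37 in green and 0.02, 0.17 and 0.09 in white, as 1 of the 7 lists of 96 that separated lower. The microglia and complement list (19 tested, median -0.12) had 1 higher and 0 lower. The inflammation list (22 tested, median -0.11) had 0 higher and 1 lower, and the cell cycle list (32 tested, median -0.10) 0 higher and 1 lower, Pcna. Chromatin genes of the Polycomb and DNA methylation list (33 tested, median -0.02) had 4 higher and 1 lower. Cbx7, a Polycomb reader, was at 136, 141 and 168 CPM in green, 89.9, 97.7 and 128 CPM in white and 137, 191 and 175 CPM in blue.

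Of 22 unconventional myosins 4 were higher and 0 lower at an unadjusted p under 0.05 (median 0.09, median gene span 126 kb): Myo15b, Myo10, Myo15a and Myo5b. Myo10, of filopodia, was at 145, 142 and 161 CPM in green and 116, 133 and 132 CPM in white. Of 36 genes of motile cilia and sperm tails 5 were higher and 2 lower (median 0.12). Dnah5, a dynein heavy chain of motile cilia, was at 2.51, 2.79 and 2.77 CPM in green and 1.43, 1.73 and 1.46 CPM in white, whereas Odf3 was lower, as given above.

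Lens genes at low levels made up most of the higher genes of largest difference under the naming rule. Of 24 tested lens genes 21 had a higher level in green, 11 of them at an unadjusted p under 0.05 with 0 lower (3.52% of all genes were higher at that p), and the median log2 difference was 0.82. Their median gene span was 6.03 kb. Of the 6 higher genes that the rule takes, 5 were lens genes, Crybb1, Cryba4, Crygc, Cryba1 and Grifin, and the remaining gene was the receptor gene Gpr142 (log2 difference 2.04 ± 0.55). Cryba4, a beta-crystallin, was at 4.08, 5.49 and 4.74 CPM in green, 0.309, 2.96 and 0.402 CPM in white and 5.65, 2.35 and 5.69 CPM in blue. White libraries 1 and 3 were low, and white library 2 was closer to the coloured lights. The summed level of 6 lens markers was 30.6, 37.7 and 34.5 CPM in green, 10.9, 28.5 and 12.4 CPM in white and 35.4, 18.1 and 36.7 CPM in blue. The count of 11 was 5 without white library 1, 6 without white library 3 and 4 without both libraries marked "-B". Retinal neurons and glia also make some crystallins, and whether lens tissue entered the libraries was not tested.

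Pigment epithelium genes (26 tested) had the lowest median of the lists, -0.21 (median gene span 15.1 kb), with 18 of 26 lower, but 1 higher and 0 lower at an unadjusted p under 0.05. The higher gene was Otx2, a factor that photoreceptors and bipolar cells also express, at 228, 253 and 233 CPM in green and 202, 212 and 217 CPM in white. The mean deviation of the list was -0.47, 0.26 and -0.74 in green and -0.19, 0.67 and -0.27 in white, so libraries of either light differed among themselves by more than the lights did. Within green, the libraries that share animal number 11 lay at -0.47 and 0.26. The median changed sign without green library 1 or 3 and without white library 2.

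**Figure D5:**
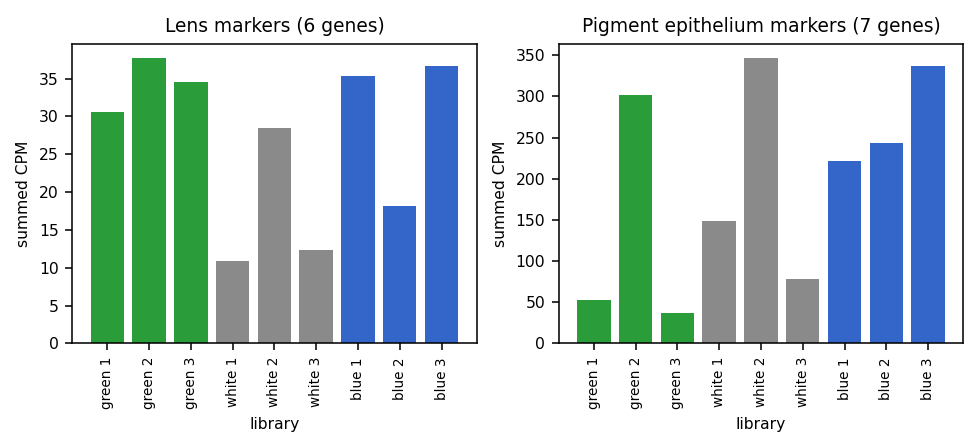
Summed CPM of 6 lens markers (left) and 7 pigment epithelium markers (right) in each library of green, white and blue light. Lens markers were at 30.6 to 37.7 CPM in green and lowest in white libraries 1 and 3, while pigment epithelium markers ran from 36.5 to 302 CPM within green.

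Of the markers of other neighbouring tissue, those of optic nerve glia, given above beside Enpp6, had the highest sums. Mog, a myelin gene among them, was at 0.231, 3.76 and 0.200 CPM in green and 0.118, 0.260 and 0.386 CPM in white, and its log2 difference of 2.44 ± 1.03 was -0.23 without green library 2. The muscle markers tested summed to 2.64 to 3.76 CPM in green and 3.27 to 8.55 CPM in white, with the top value in white library 1, and 2 muscle genes were among the 6 lower genes of largest difference. Atp2a1, a muscle calcium pump, was at 0.795, 0.686 and 0.856 CPM in green and 3.82, 1.70 and 1.09 CPM in white, and Tnni1, a troponin, was at 0.257 to 0.526 CPM in green and 0.563 to 2.20 CPM in white. The other 4 of these 6 were Tuba8, Bst2, Pdzd3 and Olfml1. The 4 fixed markers of sclera and choroid overlapped between the lights, with sums of 23.8 to 38.2 CPM in green and 30.6 to 34.5 CPM in white. Those of the cornea did not, with sums of 4.85 to 5.10 CPM in green and 5.26 to 7.58 CPM in white. Krt12, a keratin of the cornea, was at 3.25, 4.13 and 3.32 CPM in green and 4.51, 4.44 and 5.05 CPM in white. The list of cornea and surface epithelium (11 tested, median 0.0043) had 0 higher and 2 lower at an unadjusted p under 0.05, Krt12 and Dcn, and that of choroid, sclera and fibroblasts (12 tested, median -0.06) 1 higher, Col1a1, and 1 lower, Dcn. The mean deviation of the latter list was -0.06, -0.38 and -0.03 in green and 0.08, 0.19 and 0.08 in white. Unlike the 4 markers, it was thus lower in green without overlap, as 7 of the 96 lists were. Of the keratins, 9 were tested, 2 of them higher and 1, Krt12, lower at an unadjusted p under 0.05 (3.52% and 2.29% of all genes). The higher ones were Krt78, at most 0.748 CPM in any library, and Krt3. Krt3 was at 0.757, 4.16 and 1.28 CPM in green and 1.03, 0.881 and 0.692 CPM in white, so the groups overlapped. The part of these tissues in the differences between green and white was not tested.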

How the data were processed

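Retinal RNA was extracted with Trizol and sequenced in paired ends on an Illumina HiSeq instrument, per the labels' protocols. The deposited values are whole-number counts per gene and library, taken as raw counts; for the aligner, counter, strand setting and build, the sources used here name none. Values of 4 (2014) and 8 (1267) outnumber those of 3 (472) and 7 (410), so a unit of the table may not be a single fragment. The filter filterByExpr (at least 10 counts in enough libraries, 15 in total) removed 4493 genes, 2697 of them without a count in any library. Quasi-likelihood F tests were run in edgeR 4.0.16 under R 4.3.3 on all 9 libraries together, with TMM scaling and light as the only term. Adjustment for the 15469 genes followed Benjamini and Hochberg. The common biological coefficient of variation was 17.68%. CPM are scaled by TMM; errors of log2 differences are SE. Floors of 3 counts cover counting error only. Library totals are in the report.

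Members, gene lists and the naming rule were chosen with earlier results of these data known. The rule names genes past the threshold, the 15 higher and 15 lower genes of smallest p (8 and 8 above 100 CPM), the 6 and 6 of largest difference, and 4 members of each list described. Symbols were used as deposited; 18340 (91.9%) match the RefSeq table of mCavPor4.1, which gave gene spans for 14298 tested genes (92.4%). Alternatives were DESeq2 1.42.0, voom in limma 3.58.1, other scalings and filters, fewer libraries, sums per animal number and covariates. The scripts were tested on simulated data. Some genes are not reported here.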

Additional observations from a re-analysis of the deposited data

How the results depend on the processing

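The count of 1 called gene became 24 in the DESeq2 test (16 higher, 8 lower), 10 without both "-B" libraries, and 0 at a filter of 5 CPM, in the 6 green and white libraries alone, with the pigment epithelium covariate, with counts divided by 4 and in voom with the correlation within animal numbers (estimated at -0.1741). Those 5 settings left 689, 659, 374, 869 and 1375 genes at an unadjusted p under 0.05, and LOC101788254 was not tested at 5 CPM. Leaving out a single library gave 0 to 6 calls, with 550 to 1206 genes at that unadjusted p, and sums per animal number gave 1 call and 512. LOC101788254 had an adjusted p of 0.164 with the pigment epithelium covariate, 0.128 with counts divided by 4 and 0.107 in voom.

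Some medians and values near 0 changed sign. Over left-out libraries the pigment epithelium median ran from -0.61 to 0.18, being 0.011 without green library 1, 0.0081 without green library 3 and 0.18 without white library 2, and it was 0.37 with its own covariate. The microglia median was 0.065 at 5 CPM, 0.052 without the "-B" libraries and 0.019 with the covariate, the interferon median 0.088 with the covariate, and the inflammation median ran from -0.16 to 0.00011 (without white library 2). Hif1a was at 0.0072 at 5 CPM and 0.0030 in voom, and ran from -0.065 to 0.077 over left-out libraries, Igf1 from -0.39 to 0.15, Igf2 from -0.097 to 0.057 and Mog from -0.23 (without green library 2) to 2.95. Igf1 was at 0.22 without the "-B" libraries, and Igf2 at 0.016 with sums per animal number and 0.025 with the covariate. Pecam1 was at -0.43 without the "-B" libraries and -0.34 with the covariate, where Opn4 was at -0.16. The cause of these changes was not tested; leaving out a library also moved the number of genes tested, from 15469 to between 15623 and 15662. No paired analysis was possible because the labels give the groups no replicate numbers in common.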

Other observations

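Lists that did not meet the rule held some genes at an unadjusted p under 0.05 in edgeR, which are given here after their values were seen. Of 33 matrix proteases and inhibitors, 4 were higher in green (3.52% of all genes) and 0 lower at that p. All 4 are metalloproteinases of the ADAM and ADAMTS families. Adamts18 was at 15.6, 15.4 and 27.0 CPM in green and 12.3, 9.56 and 12.2 CPM in white (log2 difference 0.77 ± 0.21), Adamts3 differed by 0.33 ± 0.08, Adamts10 by 0.45 ± 0.15 and Adam12 by 1.04 ± 0.37, each without overlap between the groups. In the list of GABA and glycine transmission (28 tested) the 3 such genes were higher: Glra4, a glycine receptor subunit, by 0.75 ± 0.22, Abat, which breaks down GABA, by 0.24 ± 0.07, and Gabra2 by 0.25 ± 0.11.

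Of 35 nuclear-encoded subunits of respiratory complex I, 29 had a lower level in green (median -0.09). At an unadjusted p under 0.05 stood 5.71% of them, near the 5.81% of all genes. All 3 green libraries lay below all 3 white ones for 7 of the 35, as they did for 4.74% of all genes. The median gene span was 6.78 kb. The mean deviation was -0.18 in green library 1, -0.04 in library 2 and 0.02 in library 3, and -0.03, 0.10 and -0.0019 in white. Green library 1 thus lay lowest, and green library 3 lay within the white range. In the Notch and Hippo list (33 tested) Notch3, Hes5 and Tead3 were lower at that p, each with overlap between the groups.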
